A study of Mus musculus with 4 samples.

Results

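The 3 Adgrb receptors (Adgrb1, Adgrb2 and Adgrb3) and 3 C1q-like ligands (C1ql1, C1ql2 and C1ql3) were followed across brain areas of coronal mouse sections. They were taken by symbol from a table of spatial counts, and all 6 of 6 were found among its 19465 genes. The study profiled 4 mice, 2 wild type and 2 Celsr3 heterozygous, with no treatment in either group. Their age, sex and strain, and the allele behind the heterozygous state, were not given in the sources used here. Brains were fixed in formalin, embedded in paraffin and trimmed so that the striatum showed. Counts came from Visium CytAssist version 2 for such tissue, in which probes are counted at barcoded spots, so a spot is a small region that can hold several cells of different types. The table marks spots with 4 barcode endings, called sets 1 to 4 here. No ending matches a sample label, so no set could be given a genotype, and wild type and heterozygous sections were not compared. Sets are described one by one, without a mean or a p-value.

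Adgrb1, Adgrb2 and Adgrb3, also known as the brain-specific angiogenesis inhibitors BAI1 to BAI3, are adhesion G-protein-coupled receptors with long extracellular regions, found mainly on neurons and, for some members, glia. C1ql1, C1ql2 and C1ql3 are secreted proteins with a C1q-like globular head that bind Adgrb3, and they belong to the same superfamily as the cerebellins. In the cerebellum C1ql1 from climbing fibres acts through Adgrb3 on Purkinje cells, and in the hippocampus C1ql2 and C1ql3 are made by the mossy fibres of the dentate gyrus.

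The 4 sets held 3055, 2808, 3444 and 3294 spots after 1 spot under 500 counts was left out, with 90752475 to 174761560 counts per set. Median counts per spot were 52481, 38181.5, 44972 and 26444.5 in sets 1 to 4. Of 4744 different barcodes, 1613 occurred in all 4 sets. Spots were placed in areas by marker genes other than the 6 members, and 1965 spots fell in no area. An area was used in a set where it had at least 30 spots and no held-out marker was at 0.8 times its level in the other spots or lower. Of 16 areas listed, 15 were used in 2 or more sets and 12 in all 4. Thalamus was used in sets 1 and 4, choroid plexus in sets 1 and 3, lateral septum in sets 2 and 3, and hippocampus in none. Striatum, with 374 to 763 spots, carried its held-out marker Scn4b at 12.8 to 15.3 times the level of the other spots. Layer 5 was named with less support, since its held-out marker Trib2 was at 0.858 to 0.988 times the other spots while Sulf2 was at 2.20 to 2.44 times.

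Levels are CPM (an area's counts of the gene for every 1000000 counts of all genes there), with exact Poisson 95% intervals in the plots. Ratios compare an area with all other spots of the same set, or with another area, and carry exact conditional binomial 95% intervals. Both cover counting error only. A gene was called higher or lower in an area where it was at least 2-fold apart in every set used, over the 13709 genes at 1 CPM or more. Probes cover only part of each transcript, so levels of different genes are not compared. Related genes may share probe binding, which the table does not resolve. A lower level in an area can mean fewer cells of a type or less RNA per cell, and these cannot be told apart.

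Adgrb1, which binds phosphatidylserine on dying cells and signals through ELMO and DOCK proteins, was spread over grey matter and richest in the cortex. In cortical layer 2/3 its level was 983, 1823, 1089 and 1675 CPM in sets 1 to 4. In cortical layer 6 it was 1034, 1776, 1135 and 1761 CPM in the same order. These were the 2 highest areas in each set, and layer 6 was the highest in sets 1, 3 and 4. The intervals of layers 2/3 and 4 overlapped in sets 1 and 4. In set 2 the interval of layer 6 overlapped those of layers 2/3 and 4, so the highest area was not resolved there. In layer 5 the levels were 779, 1506, 859 and 1353 CPM, below layers 2/3, 4 and 6 in every set. White matter held 391, 708, 438 and 727 CPM, at 0.495 to 0.578 times the other spots. Adgrb1 in white matter was therefore near the 2-fold limit but not called. Choroid plexus was lowest in both sets that had it, at 241 and 276 CPM, 0.336 and 0.341 times the other spots, and Adgrb1 was called lower there. Of all genes, 12.5% were called lower in choroid plexus.

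Adgrb2, a further neuronal member of the family, followed a similar course with its peak in the upper cortex. Its level in layer 2/3 was 473.6, 632.4, 369.5 and 630.4 CPM in sets 1 to 4, the highest area in each of the 4 sets. The ratio of layer 2/3 to other spots was 1.49 to 1.72. In layer 5 it was 331, 449.9, 266.5 and 505 CPM. In white matter it was 135, 236, 143 and 199 CPM, 0.448 to 0.567 times the other spots, and not called because sets 2 and 3 lay inside the limit. With set 3 left out and spots placed anew it was called lower, at a log2 ratio of -1.10. In choroid plexus it was 118 and 94.5 CPM and called lower, at 0.372 and 0.404 times the other spots, beside 12.5% of all genes. With areas taken from clusters that call was lost.

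Over the 54 combinations of area and set, the log2 levels of Adgrb1 and Adgrb2, centred within each set, had a Pearson r of 0.94. The points share sections, depth and cell mixture, so r is a description. Each was also close to neuronal genes: Adgrb1 to Dagla (r = 0.96), which makes the endocannabinoid 2-arachidonoylglycerol, and to Trim9, Unc13a, Frrs1l and Sept5. Adgrb2 was closest to Unc13a (r = 0.96), a synaptic vesicle priming factor, then Rbfox3, Cdk5r2, Mef2d and Adgrl1. Thalamus parted the 2 receptors in size. There Adgrb1 was at 648 CPM in set 1 and 1248 in set 4, 0.939 and 1.02 times the other spots. Adgrb2 was at 208 and 247 CPM, with ratios of 0.716 and 0.583.

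Adgrb3, the receptor bound by the C1q-like ligands, was the receptor with its peak in the striatum. Striatal levels were 256.6, 129.4, 252.0 and 114.4 CPM in sets 1 to 4, the highest area in every set. The ratio to other spots was 1.37 to 1.45, below the 2-fold rule, and all 4 sets lay on the same side of 1. Cortical areas from layer 2/3 to 6b stood close together, at 172 to 218 CPM in set 1 and 81.1 to 93.4 in set 2. Neighbouring areas in the order of levels had overlapping intervals in 10 of 13 pairs in set 1 and in 11 pairs in each other set, so most of the order was not resolved. In set 2 lateral septum, at 125 CPM, overlapped striatum. White matter was lowest in set 2 (65.6 CPM) and set 4 (54.1 CPM), and choroid plexus in set 1 (76.2 CPM) and set 3 (104 CPM). Without set 2 in the placing of spots, choroid plexus was called lower at a log2 ratio of -1.21. The highest area exceeded the lowest 1.97 to 3.37 times, against 30.3 to 84.1 times for C1ql2. Adgrb3 was closest over areas to Tnik (r = 0.91), a kinase of the postsynaptic density, with Lmtk3, Pdzd4 and Trim46 also near the top.

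**Figure D1:**
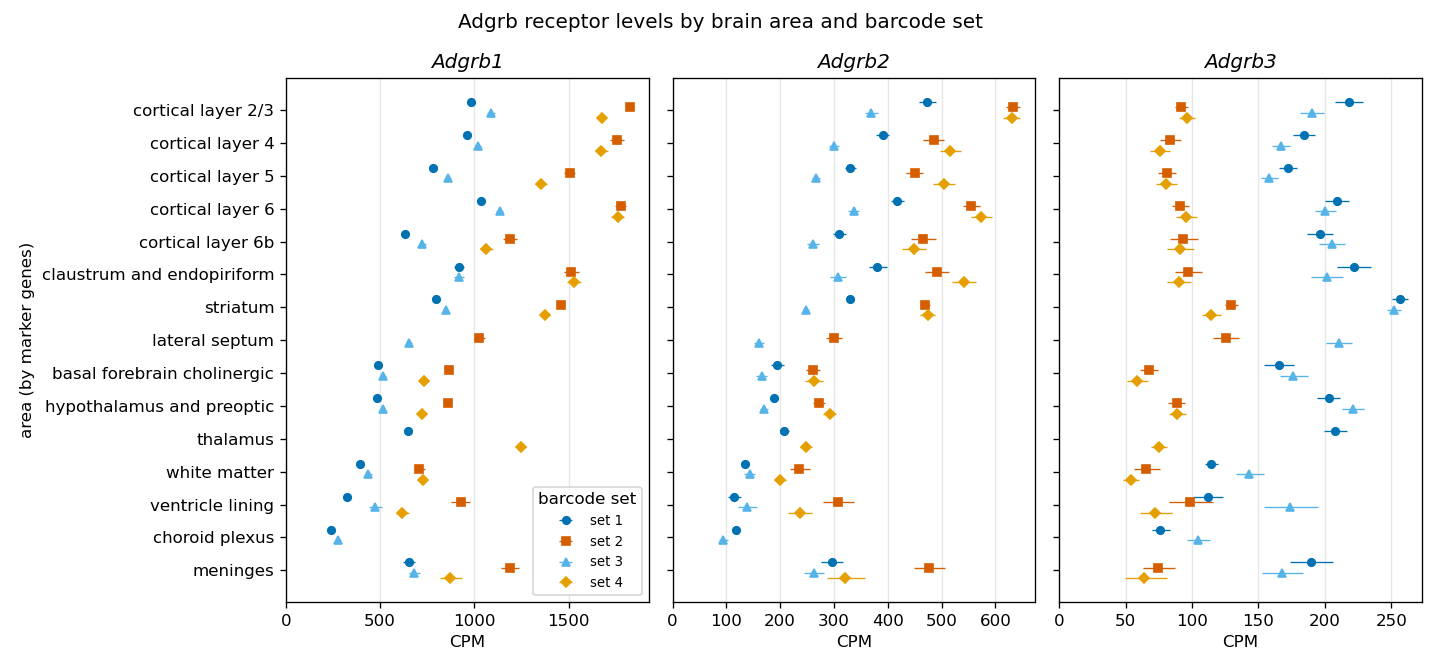
Levels of Adgrb1, Adgrb2 and Adgrb3 in CPM (x axis, linear from 0) in each area (y axis); each point is 1 barcode set and bars are exact Poisson 95% intervals. Adgrb1 is highest in cortical layer 6 in sets 1, 3 and 4 and in layer 2/3 in set 2. Adgrb2 is highest in layer 2/3 and Adgrb3 in striatum in all 4 sets. Sets 2 and 4 lie to the right for Adgrb1 and Adgrb2 and to the left for Adgrb3.

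C1ql3, a ligand made by excitatory neurons of the forebrain, had the sharpest split between cortex and striatum of the 6 genes. In layer 2/3 it reached 219, 95.5, 171 and 85.3 CPM in sets 1 to 4. In striatum it was 4.92, 2.42, 3.79 and 2.78 CPM, from 144, 53, 120 and 26 counts. The lowest layer 2/3 level was thus far above the highest striatal level, with no overlap between areas. Layer 2/3 was 2.17 to 3.43 times the other spots and C1ql3 was called higher there, as were 1.05% of all genes. With areas taken from clusters that call was lost, at a median log2 ratio of 1.73. Within the cortex its levels were uneven: layer 4 held 84.7, 27.0, 67.7 and 27.3 CPM, below layers 2/3, 5 and 6 in every set. Layer 5 held 123, 69.1, 107 and 57.8 CPM. Layer 6 held 116.5, 78.0, 102.6 and 53.8 CPM. Claustrum and endopiriform spots were below layer 2/3 in every set, with 154.9, 68.2, 125 and 56.9 CPM. Thalamus held 168 CPM in set 1 and 106 in set 4, 2.39 and 2.79 times the other spots, and C1ql3 was called higher there beside 2.68% of all genes.

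C1ql3 was called lower in 5 areas. In striatum it was at 0.0474 to 0.0567 times the other spots, where 8.75% of all genes were called lower. In basal forebrain, at 3.84 to 13.3 CPM, it was at 0.0885 to 0.222 times, where 2.39% of genes were called lower. In white matter, at 10.4 to 22.3 CPM, it was at 0.224 to 0.282 times, beside 3.42% of all genes. On thinned counts the white matter call was lost, at a log2 ratio of -1.27. In choroid plexus it was at 17.5 CPM in set 1 and 2.25 CPM in set 3, both below the other spots by more than 2-fold. There 12.5% of all genes were called lower. In lateral septum, used in sets 2 and 3, C1ql3 was at 5.27 and 24.5 CPM and was called lower with 4.25% of all genes. In the hypothalamus and preoptic area it was at 24.7, 26.5, 29.4 and 15.1 CPM and not called, though without set 2 it was called lower at a log2 ratio of -1.63. The lateral septum call was lost with no score minimum and with scores scaled within each set, at log2 ratios of 0.41 and -1.51. It was also lost on thinned counts, at -0.13. Without the bar on held-out markers, which had left out the 66 lateral septum spots of set 4, it was lost at -1.25. C1ql3 was closest over areas to Rtn4r (r = 0.91), the Nogo receptor, then to the neurotrophin Bdnf, Nrn1, Gabbr2 and the neuropeptide Cck.

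C1ql2, the ligand best known from mossy fibres, was the most local of the 6. Its thalamic level was 41.1 CPM in set 1 and 204.4 in set 4, 2.62 and 13.0 times the other spots. C1ql2 was called higher there beside 2.68% of all genes. In the hypothalamus and preoptic area it was 60.2, 71.3, 15.5 and 17.2 CPM in sets 1 to 4, with ratios from 0.497 to 10.4. Sets 1 and 2 were thus high and sets 3 and 4 low, and no call was made. Without set 4 it was called higher there, at a log2 ratio of 2.08. Basal forebrain held 18.0, 38.3, 39.0 and 21.9 CPM. Layer 5 stood out within the cortex in sets 1, 3 and 4 at 19.7, 17.8 and 10.9 CPM, against 3.36 CPM in set 2. Layer 4 held 1.26, 1.81, 2.51 and 2.43 CPM.

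C1ql2 was called lower in 6 areas, all cortical, claustral or striatal. Layer 2/3 was at 0.0978 to 0.195 times the other spots (4.54% of all genes called lower), layer 4 at 0.0683 to 0.290 times (5.59%) and layer 6 at 0.0870 to 0.270 times (4.72%). Layer 6b was at 0.234 to 0.489 times (1.37%) and the claustrum at 0.120 to 0.377 times (2.24%). Striatal C1ql2 was 1.74, 2.14, 1.58 and 3.74 CPM, from 35 to 51 counts a set. It was at 0.0854 to 0.164 times the other spots (8.75%). The other spots include the few very rich ones, and their part in these ratios was not tested. On counts thinned to at most 10000 per spot, with spots placed anew, calls in thalamus and layers 2/3, 4 and 6b were lost. The median log2 ratios were then 1.84, -1.54, -1.64 and -1.37 in that order. The layer 6b call was also lost with RLE scaling and with no minimum score for areas.

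The counts of C1ql2 sat in few spots. The 30 spots with most C1ql2 counts held 35.8%, 47.2%, 23.3% and 65.9% of its counts in sets 1 to 4. A single spot reached 212 counts in set 1 and 168 in set 4, against 49 in set 2 and 23 in set 3, while 2226 to 2779 spots a set had none. In set 4, 22 of the 30 spots were in thalamus, and in set 2, 20 were in the hypothalamus and preoptic area. In set 1, 11 were in the hypothalamus and preoptic area and 8 in thalamus, and in set 3, 11 were in layer 5 and 10 in basal forebrain. C1ql1 had 6.92% to 11.9% of its counts in its own 30 richest spots, C1ql3 8.33% to 14.1%, and the 3 receptors 2.84% to 4.08%. The shares were not corrected for a gene's number of counts. Across areas C1ql2 was closest to Arhgap12 (r = 0.84), then Msto1, Pcbd1, Aifm2 and Pgd.

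**Figure D2:**
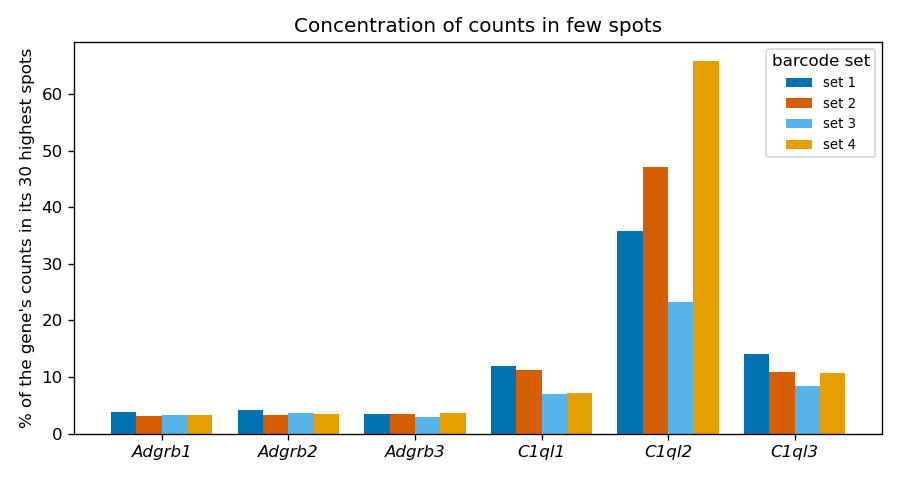
Share of each gene's counts, in percent (y axis from 0), held by its 30 richest spots in each barcode set (bars, coloured by set). C1ql2 stands at 23.3% to 65.9%, above every other member in every set, and the receptors at 2.84% to 4.08%.

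The sequences just before the start sites of C1ql2 and C1ql3 are shown because these 2 members varied most between areas and were the 2 called higher in thalamus. Both are RefSeq sequence of GRCm38.p6, 250 bases 5' to 3' on the gene's strand, with CpG pairs in capitals. C1ql2 lies on the plus strand at chr1:120340332-120340581 and C1ql3 on the minus strand at chr2:13010865-13011114.
C1ql2: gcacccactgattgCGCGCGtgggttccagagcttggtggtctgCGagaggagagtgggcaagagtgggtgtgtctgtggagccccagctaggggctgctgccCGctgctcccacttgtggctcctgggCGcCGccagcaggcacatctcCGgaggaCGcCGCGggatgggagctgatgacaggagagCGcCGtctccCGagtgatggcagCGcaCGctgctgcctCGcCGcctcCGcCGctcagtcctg
C1ql3: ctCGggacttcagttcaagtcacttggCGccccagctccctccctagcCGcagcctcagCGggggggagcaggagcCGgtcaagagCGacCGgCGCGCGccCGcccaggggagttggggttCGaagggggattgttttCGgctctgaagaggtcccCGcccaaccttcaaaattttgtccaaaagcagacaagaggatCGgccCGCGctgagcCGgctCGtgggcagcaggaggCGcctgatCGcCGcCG
The C1ql2 stretch holds 20 CpG pairs, more than 82.1% of 32851 promoter stretches of the same length, and the C1ql3 stretch holds 23, more than 86.7%. GGGCGG, the core of a GC box, was searched on both strands and occurs in 32.7% of all promoters. It is at 2 places on the opposite strand of C1ql3 and at 0 in C1ql2. TATAAA (12.4% of promoters), CAGCTG (13.0%) and TGACGTCA (1.55%) have no match in either stretch on either strand. A match describes letters in this window and says nothing of a factor.

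C1ql1, the ligand of climbing fibres and also a marker of oligodendrocyte precursors, had its highest values in white matter. White matter held 33.6, 38.3, 39.6 and 49.6 CPM in sets 1 to 4, the highest value in every set. Its interval stood clear of all other areas only in set 1. In set 2 basal forebrain at 37.1 CPM and the hypothalamus and preoptic area at 36.0 CPM were among those that overlapped it. Lateral septum at 36.3 CPM did so in set 3 and basal forebrain at 42.9 CPM in set 4. The ratio to other spots was 2.08 to 2.44, and C1ql1 was called higher in white matter with 4.12% of all genes. That call was lost with a stricter score for areas, with areas from clusters, with scores scaled within each set and with thinned counts, at log2 ratios of 1.15 to 1.27. Layer 4 held 5.65, 7.86, 7.93 and 13.1 CPM and was lowest in sets 1, 2 and 4. It was not called, but leaving out set 3 or set 4 made it called lower, at log2 ratios of -1.33 and -1.28. The claustrum was lowest in set 3, at 7.90 CPM. Striatum was also low, at 10.7, 11.2, 11.3 and 18.2 CPM. Set 4 was the high value in layer 4 and in striatum.

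Marker lists of several glial types were also higher in white matter than in striatum. A list of 8 oligodendrocyte precursor markers summed to 1295 to 1494 CPM in white matter and 194 to 767 CPM in the other areas. It includes Olig1, Olig2 and Sox10, which mature oligodendrocytes also express, so its sum is not a level of precursors alone. In white matter 5 of these 8 markers were called higher and 0 lower. Outside white matter the precursor sum reached its highest value in basal forebrain, at 634 to 767 CPM, where C1ql1 was at 23.4 to 42.9 CPM. In lateral septum the sum was 407 to 644 CPM and C1ql1 was at 31.4 to 36.3 CPM. Precursor markers were also at 534 to 578 CPM in layer 6b and 477 to 497 CPM in thalamus. C1ql1 was called higher in none of these areas. Microglia markers (5 genes) summed to 432 to 649 CPM in white matter, against 312 to 389 CPM in striatum. Astrocyte markers (5 genes) summed to 1366 to 1494 CPM, against 726 to 865 CPM. In white matter 0 of 5 microglia and 1 of 5 astrocyte markers were called higher. Astrocyte sums were higher in ventricle lining (1781 to 2250 CPM) and meninges (1823 to 2531 CPM). Microglia sums overlapped those of basal forebrain (347 to 517 CPM) and meninges (456 to 538 CPM). Of the excitatory neuron markers 5 of 5 were called lower in white matter. Of the 5 inhibitory neuron markers 0 were called higher and 0 lower there, with a median log2 ratio of -0.04. Their sum was 554 to 874 CPM in white matter, against 831 to 1080 CPM in striatum, so white matter spots were not free of neuron markers. The part of these cell types in the C1ql1 level was not tested. With each spot thinned to 10000 counts, leaving out shallower ones, C1ql1 was seen in 26.6%, 34.1%, 30.1% and 39.3% of white matter spots. In striatum the shares were 9.86%, 10.4%, 13.1% and 16.0%, so white matter was above striatum at equal depth in each set. Before thinning they were 67.4%, 51.2%, 58.1% and 55.7% against 38.4%, 30.1%, 36.3% and 32.9%. C1ql1 was closest over areas to Hsd17b11 (r = 0.87), then to the growth factor Fgf1, the urea transporter Slc14a1, Asrgl1 and the selenium carrier Selenop.

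**Figure D3:**
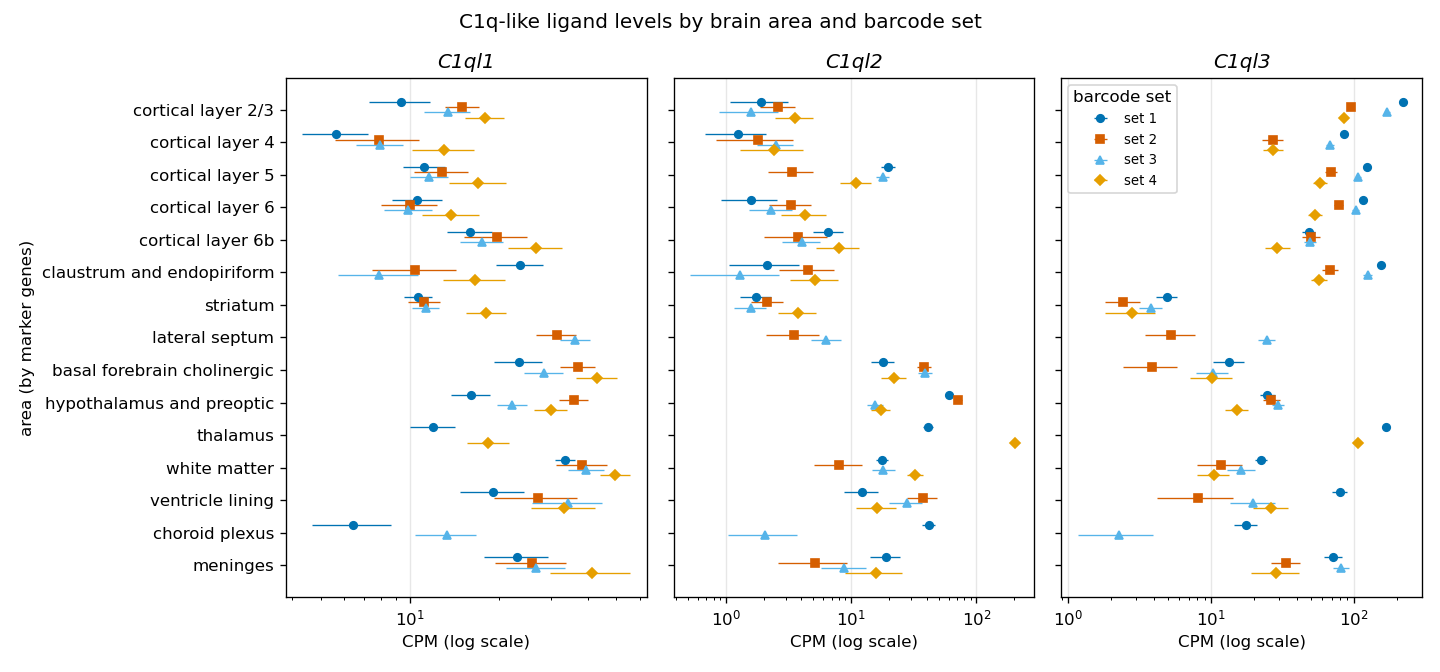
Levels of C1ql1, C1ql2 and C1ql3 in CPM (x axis, log scale) in each area (y axis); each point is 1 barcode set and bars are exact Poisson 95% intervals. C1ql1 is highest in white matter, C1ql2 reaches 204.4 CPM in the thalamus of set 4, and C1ql3 falls from 85.3 to 219 CPM in layer 2/3 to between 2.42 and 4.92 CPM in striatum.

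The sections were cut to show the striatum, and striatum was set directly against cortical layers 2/3 to 6 summed. C1ql3 was at 0.0381, 0.0314, 0.0357 and 0.0455 times the cortical level in sets 1 to 4, from 129, 76.9, 106 and 61.0 CPM in cortex. It was the only member called in this comparison, in which 6.93% of all genes were called lower and 4.13% higher. Excitatory neuron markers were called lower in striatum in 5 of 5 cases, with a median log2 ratio of -5.60, and inhibitory neuron markers were called higher in 3 of 5 and lower in 1, with a median of 1.61. The part of this cell mixture in the ratios of C1ql3 and the other genes was not tested. Only 41 of the 13709 genes, C1ql3 included, had a median ratio as low. Adgrb3 was higher in striatum at 1.33, 1.46, 1.43 and 1.29 times cortex, and the lowest interval bound over the sets was 1.20. Adgrb1 was lower at 0.858, 0.839, 0.842 and 0.842 times, and Adgrb2 at 0.839, 0.840, 0.795 and 0.831 times. All intervals of these 3 receptors lay on 1 side of a ratio of 1. Of all genes, 82.8% had a lower median ratio than Adgrb3, 28.5% than Adgrb1 and 27.9% than Adgrb2. C1ql2 was at 0.241 and 0.230 times cortex in sets 1 and 3. In sets 2 and 4 it was at 0.763 and 0.767 times, with intervals that include 1. C1ql1 was at 1.15, 0.899, 1.08 and 1.15 times, and all 4 intervals include 1.

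**Figure D4:**
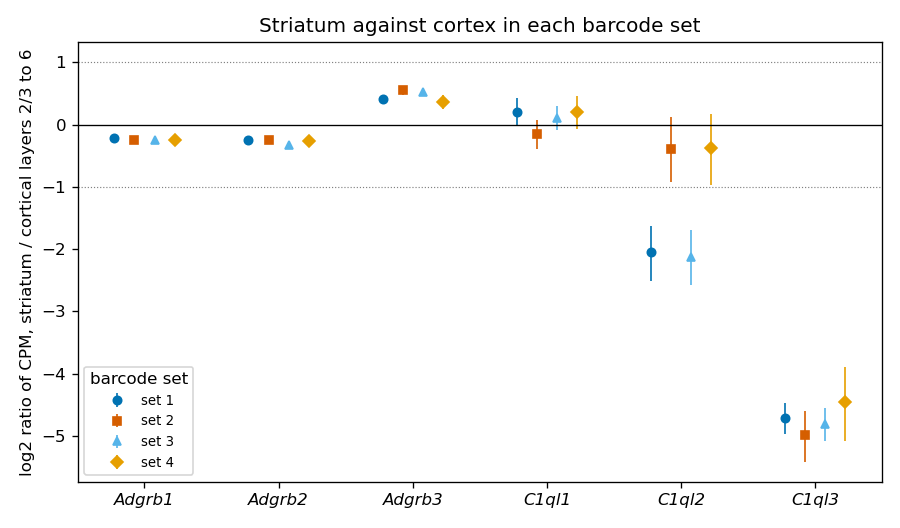
Log2 ratio of the striatal to the cortical level (y axis) for each member (x axis); points are barcode sets, bars are exact 95% intervals and dotted lines mark 2-fold. C1ql3 lies far below the lower line in all 4 sets, Adgrb3 lies above 0 and Adgrb1 and Adgrb2 below 0 in all 4 sets, and C1ql2 is split between sets 1 and 3 and sets 2 and 4.

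Other genes of the pathway were taken from lists of relatives, surface partners and intracellular partners. Of all genes tested, 6.93% were called lower and 4.13% higher in striatum than in cortex, and the lists are too short to set against these shares. Among the C1q-like relatives, 3 of 5 reached 1 CPM and 3 of 3 were called lower in striatum than in cortex. These were the cerebellins Cbln1, Cbln2 and Cbln4, secreted synapse organisers, with median ratios of 0.230, 0.0299 and 0.153. The list's median log2 ratio was -2.71, against 0.02 over all genes tested. C1ql4, the last member of the C1q-like group, was at 0.28 to 1.00 CPM over whole sections and was not tested. Of 9 surface partners tested, Grik2, a kainate receptor subunit, was called higher with a median ratio of 2.74. The Nogo receptor Rtn4r and its relative Rtn4rl2, which bind Adgrb1, were called lower at 0.0290 and 0.0171. The list's median was 0.05. Of 13 intracellular partners, 3 were called higher and 0 lower: the engulfment adaptor Elmo1 at 2.69, the polarity protein Pard3 at 4.91 and the scaffold Baiap2 at 2.37. Their median was 0.34.

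Levels also differed between sets over whole sections, and the 3 receptors did so in opposite directions. Adgrb1 was at 688, 1413, 804 and 1223 CPM in sets 1 to 4. Adgrb2 was at 284.9, 454.2, 249.0 and 408.3 CPM. Sets 2 and 4 were thus high for both. Adgrb3 was at 191, 97.4, 197 and 83.6 CPM, so sets 2 and 4 were low. The same directions were seen within areas. Adgrb1 and Adgrb2 were higher, and Adgrb3 lower, in set 2 than in set 1 in 12 of 12 areas. Against set 3, set 2 showed these directions for all 3 genes in 13 of 13 areas. Set 4 showed them in 13 of 13 areas against set 1 and in 12 of 12 against set 3. Areas of a set are parts of the same section, so they are not separate replicates of a difference between sets. The share of all genes that keep the same direction over areas was not counted. Median counts per spot were also lower in sets 2 and 4, and the part of depth, section plane or genotype was not tested.

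Between sets, a 2-fold rule over whole sections called Adgrb1 apart in sets 1 and 2, where 10.1% of all genes were apart. Adgrb3 was called apart in sets 1 and 4 (10.3% of all genes), 2 and 3 (6.39%) and 3 and 4 (8.24%). With scaling by TMM or RLE, the Adgrb1 call between sets 1 and 2 was lost and Adgrb3 was called there instead. C1ql2 was at 17.3, 11.9, 8.09 and 33.0 CPM and was called apart in sets 1 and 3 (1.48% of all genes), 2 and 4 (1.96%) and 3 and 4. On thinned counts the first 2 of these were lost. The thalamus, rich in C1ql2, had 133 spots in set 1 and 233 in set 4 and was not used in sets 2 and 3. C1ql1 was at 16.3, 18.9, 17.0 and 24.0 CPM and C1ql3 at 76.3, 41.2, 56.7 and 44.2 CPM, with no pair 2-fold apart. After TMM or RLE scaling, C1ql3 passed the rule for sets 1 and 2, and for sets 1 and 4. Celsr3, the gene altered in the heterozygous mice, was at 31.7, 46.8, 26.0 and 47.2 CPM, and was not used to assign a set to a genotype.

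**Figure D5:**
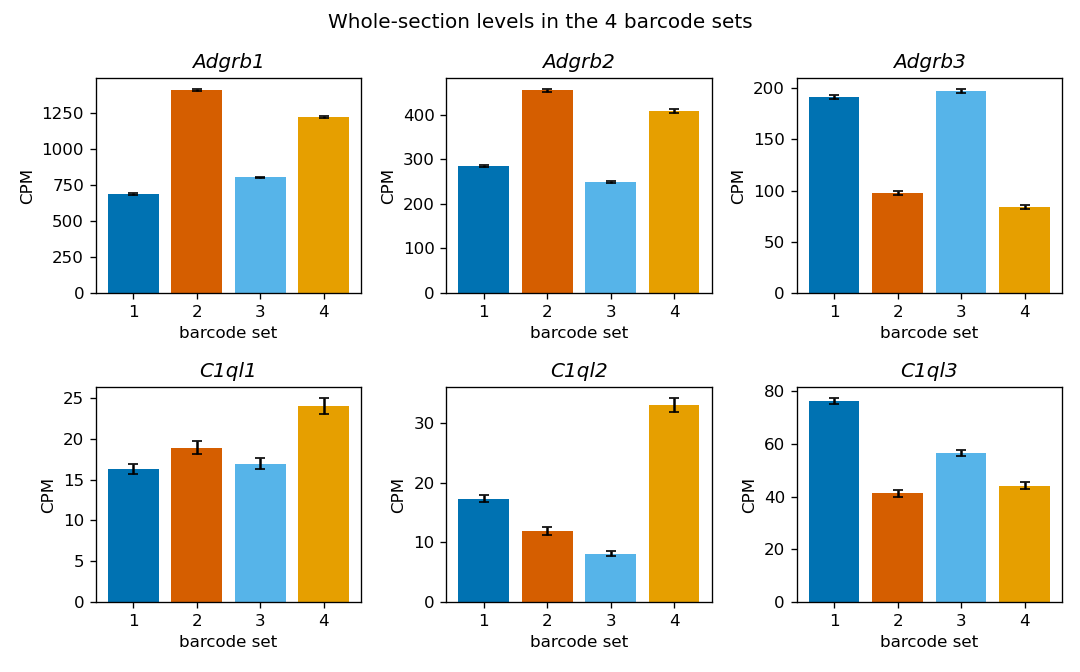
Whole-section level of each member in CPM (y axis from 0, own scale per gene) in the 4 barcode sets (bars), with exact Poisson 95% intervals. Adgrb1 and Adgrb2 are high in sets 2 and 4, where Adgrb3 is low, and C1ql2 is highest in set 4 at 33.0 CPM.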

How the data were processed

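The authors deposited 1 table of raw counts per gene and spot for the sections; Space Ranger and Seurat are named by the submitters' processing notes, and the aligner, genome build, probe set and spot filters are not given in the sources used here. All values are whole numbers, and 0 columns belonged to other samples. Spots with at least 500 counts were kept. Areas came from 75 of 76 assigning marker genes, scored on log-scaled counts standardised over all spots, with a minimum score of 0.5 and a lead of 0.2 over the next area. The bar on held-out markers was added after the data were seen. Counts were summed per area and set (Python 3.11.15, scanpy 1.11.5, scipy 1.17.1), with edgeR 4.0.16 giving TMM and RLE scaling for alternatives. Clusters came from the Leiden method (leidenalg 0.10.2, resolution 0.8) without the members.

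The members and the gene lists were chosen with earlier results of these data known. Genes named besides the 6 members and the lists are, for each member, the 5 with the highest correlation over areas among genes at 10 CPM or more; a few items are not reported here. On data simulated from the real counts, the striatum-to-cortex rule over 13709 genes recovered 98.5% of 200 genes changed 4-fold and called 0 unchanged ones, and 97 of 100 intervals held the fold. The intervals cover counting error only, so these figures describe counting error. How the rule fares where spots, sections or sets differ by more than counting error was not tested. Alternatives covered area scores, clusters, scaling, thinning, filters, the fold and each set left out. The edgeR genotype test that was planned needs the genotype of each set and was not run.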

Additional observations from a re-analysis of the deposited data

Results flagged for a closer look

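Of 78 groups of 4 set values for a member in an area or whole section, 2 had 1 set whose gap to the nearest other set, divided by the range, was over Dixon's 95% critical value for 4 values. Chance alone gives about 1 such group in 20. C1ql1 in striatum was at 18.2 CPM in set 4, with 10.7 to 11.3 CPM in the other sets. C1ql3 in cortical layer 6b was at 29.1 CPM in set 4, with 48.1 to 50.2 CPM in the other sets.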

How the results depend on the processing

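All 6 striatum-to-cortex ratios of the members kept their side of the 2-fold rule under the alternatives run, and 5 kept their direction. C1ql1, not called, turned from a log2 ratio of 0.15 to -0.04 on thinned counts. Of the other member values under an alternative, 1594 kept their side of the rule in use, 34 came to pass it and 20 no longer passed it. Of the 34, 19 came from the 1.5-fold setting, where the limit was lowered and the ratios stayed as reported. Signs differed from the reported one in 41 of 1734 member ratios under an alternative, from 18 values, and 40 of the 41 were of values not called as reported. A sign changed for a value called before or after in 2 of them. C1ql2 in choroid plexus had a log2 ratio of -1.67 with areas from clusters, and C1ql3 in lateral septum had 0.41 with no score minimum, against -1.88 as reported. Genes called higher in striatum than cortex numbered 371 at 10 CPM or more and 1155 at 1.5-fold, against 566, and those called lower 1645 at 1.5-fold, against 950. Genes 2-fold apart numbered, without a filter, at 10 CPM or more and at 1.5-fold, 5725, 774 and 3985 for sets 1 and 2. Sets 1 and 3 gave 1293, 57 and 923, sets 1 and 4 gave 6243, 819 and 4144, and sets 2 and 3 gave 4585, 487 and 3069. Sets 2 and 4 gave 1150, 89 and 931. Sets 3 and 4 gave 5845, 634 and 3773. C1ql2 and C1ql3 in striatum rest on 26 to 144 counts a set, so small differences there were not detectable. No paired analysis was possible because the barcode endings carry no sample name, genotype or replicate number. The DESeq2 fit and the fits without a replicate were not run for the same reason. The cause of these shifts was not tested.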

Other observations

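Clusters made without the members showed finer places than the marker areas, and are given as values. In the cluster led by Pvalb and Six3, with 64 spots in set 1 and 95 in set 4, Adgrb1 was at 718 and 1331 CPM, against 688 and 1223 CPM over the whole sections. Adgrb2, which followed Adgrb1 over areas, was at 105 and 119 CPM in the same spots, against 284.9 and 408.3 CPM. In the cluster led by Sim1, Nts and Cyp26b1, C1ql1 was at 48.4 CPM in set 1, 52.0 in set 3 and 50.3 in set 4. The cluster led by Gal and Nts, with 243 spots in set 2, held C1ql1 at 48.0 CPM and C1ql2 at 65.5 CPM. In the cluster led by Avp and Oxt, C1ql2 was at 96.1 CPM in set 1, 24.8 in set 3 and 26.5 in set 4. In the cluster led by Tcf7l2, Lhx9 and Gbx2, C1ql2 was at 53.3 and 197 CPM and C1ql3 at 236 and 118 CPM in sets 1 and 4.

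The 30 spots richest in C1ql2 differed between sets in their other leading genes, which were looked up after the spots were chosen by C1ql2. Abhd12b was at 73.7 CPM in those spots of set 1 and 228 CPM in those of set 4, against 1.41 and 2.5 CPM in the remaining spots. In set 1 Avp came first, at 9296 CPM against 252 CPM, with Gal, Oxt and Otp also among the leading genes. In set 3 the cholinergic genes Slc5a7, Slc18a3 and Chat led, at 52.3, 60.3 and 51.8 CPM against 5.66, 7.73 and 5.87 CPM. In set 2 the neuropeptide gene Gal and the oestrogen receptor Esr1 led, at 656 and 179 CPM against 27.8 and 7.84 CPM.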
